A study of Saccharomyces cerevisiae W303 with 30 samples.

Results

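The hypoxic genes of budding yeast and the Rox1 repressor that holds them down in air were followed here as a set of 10 genes, picked by their identifiers in the tables of nascent RNA counts: ROX1 (YPR065W), ANB1 (YJR047C), HYP2 (YEL034W), HEM13 (YDR044W), HMG2 (YLR450W), CYC7 (YEL039C), COX5B (YIL111W), AAC3 (YBR085W), TIR1 (YER011W) and DAN1 (YJR150C). These are 10 of the 6692 genes counted. They were listed with earlier results of the same libraries in view, among them the rise of ANB1 in med16Δ cells, so ANB1 in that contrast is described below with no test. The study asked what transcription looks like when Med16, the subunit that ties the tail module of the Mediator coactivator to the rest of the complex, is lost for good or within minutes. Newly synthesized RNA (nsRNA) was labelled with 4-thiouracil (4tU) for 6 min, purified and sequenced in 30 libraries, 3 from each of 10 groups. No group was grown at low oxygen, so these are the levels of hypoxic genes in aerated cultures.

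All strains were W303 MATa, shared marker alleles of ade2, can1, his3, leu2, trp1 and ura3, and grew in YPD, a rich glucose medium, at 30°C. The med16Δ strain carries med16Δ::LEU2 and lys2, and the untagged WT strain is its reference. In the degron strains a subunit is fused to the IAA7 tag, which the ubiquitin ligase component OsTIR1, driven by the GPD1 promoter at the leu2 locus, marks for destruction once the auxin 3-IAA is given. These strains are Med16-AID (MED16-3xV5-IAA7), Mot1/Med16-AID (MED16-3xV5-IAA7 and MOT1-3xHA-IAA7, Mot1 being an ATPase that takes TATA-binding protein off DNA), Med15/16-AID (both MED16-3xV5-IAA7 and MED15-3xHA-IAA7) and Med15-AID (MED15-3xHA-IAA7, Med15 being the tail subunit that many activators contact). Each received 0.5 mM 3-IAA in DMSO, or DMSO alone, for 30 min, whereas the WT and med16Δ cultures received neither. Each genotype is a single strain, so nothing here shows how independent isolates would vary. WT, med16Δ and Med16-AID libraries (12) were taken as one sequencing run and the other 18 as another. This grouping follows the strain names, and the sample titles do not state it. Below, a run means this assigned group alone.

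In cells with oxygen, heme lets the activator Hap1 switch on ROX1, and Rox1 then recruits the corepressor Tup1-Cyc8 to the promoters of the hypoxic genes and also to that of ROX1. When oxygen and with it heme run low, ROX1 transcription stops and the repressed genes are released. Many of these genes encode a low-oxygen version of a protein whose aerobic version comes from a partner gene, so that ANB1 pairs with HYP2 (translation factor eIF5A), CYC7 with CYC1 (cytochrome c), COX5B with COX5A (a cytochrome c oxidase subunit), AAC3 with PET9 and AAC1 (mitochondrial ADP/ATP carriers) and HMG2 with HMG1 (HMG-CoA reductase, which makes the mevalonate from which sterols are built). HYP2 is thus the aerobic gene of its pair. HYP2 and ROX1, the repressor gene transcribed in air, are the exceptions in a set of otherwise hypoxic genes.

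Rox1 binds a short element with the core ATTGTT, and its strongest known sites read ATTGTTCTC. In the R64 reference (the sacCer3 assembly, sequence and annotation from RefSeq, in which all 10 genes were found by identifier), the 600 bases before the start codon held ATTGTT on either strand in 8 of the 10 genes, all but CYC7 and HYP2. Across 6018 genes the share was 54.9%. The longer ATTGTTCTC, which contains the core, occurred before ANB1, HEM13 and HMG2, against 78 genes (1.3%) in all. ANB1 had 4 cores in 2 clusters, the longer motif in each cluster. The windows below are shown because these 3 promoters carry the longer motif; each is written 5′ to 3′ on the strand of the motif, with the 6 core bases in capitals.
ANB1, chrX:525678-525703, - strand, core 307 to 312 bases upstream: tcgtttttccATTGTTcgttcgttgc
ANB1, chrX:525647-525672, - strand, core 276 to 281 bases upstream: ttttcgccctATTGTTctcgagccta
ANB1, chrX:525580-525605, - strand, core 209 to 214 bases upstream: ttcctattccATTGTTctctttggta
ANB1, chrX:525559-525584, - strand, core 188 to 193 bases upstream: tggtaaactcATTGTTgtcggaactc
HEM13, chrIV:546450-546475, + strand, core 177 to 182 bases upstream: tgctttgcccATTGTTctcgtttcga
HMG2, chrXII:1032386-1032411, - strand, core 226 to 231 bases upstream: gcaacatcttATTGTTctcgattaac
A match of letters is a description and not a measured binding site. ANB1 (chrX:524908-525381, - strand) and CYC1 (chrX:526335-526664, + strand) are transcribed away from each other, with 953 bases between their coding regions, and COX5B is the only one of the 10 with 2 coding exons. The coding sequences of ANB1 and HYP2 are both 474 bases long and 90.9% identical, with 43 differing bases and a longest identical run of 43 bases, so that a short fragment could be given to the wrong gene of this pair. In the WT libraries ANB1 had 0, 1 and 0 sense counts beside 8124, 7567 and 8457 for HYP2. How often fragments went to the wrong gene was not tested.

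The sense counts summed to between 3838508 and 6912702 per library, with a median of 4731420. Levels are given as CPM, the count scaled by the TMM-adjusted library size, and a gene was called changed when its adjusted p (edgeR quasi-likelihood test, Benjamini-Hochberg adjustment over all genes tested) was under 0.05. The filter on low counts kept 5844 genes and 9 of the 10, leaving out DAN1. In the label check MED16 lay between 2.36 and 3.91 CPM in med16Δ cells, against 194 to 222 CPM in WT cells. The degrons act on protein, and MED16 RNA stayed between 151 and 219 CPM in all 24 degron libraries. MOT1 RNA was higher in Mot1/Med16-AID, at 710.8 to 801.9 CPM with DMSO and 1063 to 1360 CPM with 3-IAA, against 115.6 to 342.8 CPM in the other groups. That strain thus differed from the others at its target gene before depletion, and the cause was not tested. The MATa genes MFA1, MFA2, STE2 and STE6 lay between 23.4 and 1298 CPM in all libraries and the MATα genes (MF(ALPHA)1, MF(ALPHA)2 and STE3) at or under 17.7 CPM, whereas the MATa gene BAR1 had 0 counts in all 24 degron libraries and 909 to 1858 counts in the med16Δ and WT libraries. The strain list used here names no change at BAR1, so the degron strains differ from WT at least at that gene as well as by their tags and OsTIR1.

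These genes differed in both directions, and the repressor gene ROX1 and the aerobic eIF5A gene HYP2 were lower in each of the 5 main comparisons. No strain without a degron received 3-IAA, so effects of 3-IAA and of depletion cannot be told apart. In med16Δ against WT, with ANB1 left out, 4 of 8 tested genes were called (2 higher, 2 lower), where 24.0% of all genes tested were called (11.8% higher, 12.2% lower). After Med16 depletion 4 of 9 were called (2 higher, 2 lower; 19.6% of all genes, 8.25% higher and 11.3% lower), and after Med15 depletion 5 (3 higher, 2 lower; 10.2% of all genes, 2.26% higher and 7.94% lower). Depletion of both Med15 and Med16 gave 4 calls (2 higher, 2 lower; 9.80% of all genes, 2.99% higher and 6.81% lower) and depletion of both Mot1 and Med16 gave 6 (3 higher, 3 lower; 38.7% of all genes, 18.2% higher and 20.5% lower). The median log2 fold change was 0.26 in med16Δ over the 8 genes other than ANB1 and, over the 9 genes, 0.25 in Med16-AID, 0.37 in Med15-AID, 0.06 in Med15/16-AID and -0.02 in Mot1/Med16-AID, where the median over all genes tested was between -0.02 and 0.02. The high share of genes called in Mot1/Med16-AID is the background against which its 6 calls stand. All these shares hold on the TMM scale. With size factors inferred for the study's added S. pombe culture, more genes were called higher than lower in Med15-AID and Med15/16-AID, as given in the closing section. Only 86 of 5844 genes (1.47%) were called lower in all 5 comparisons, and ROX1 and HYP2 are among them. Groups that did not overlap were counted as well. In med16Δ, ANB1 again left out, all mutant libraries were above all WT libraries in 2 genes and below them in 2, against 18.1% and 17.0% of all genes. Treated libraries were all above DMSO in 3 genes and all below in 2 in Med16-AID (13.3% and 13.2% of all genes), 5 and 2 in Med15-AID (13.5% and 17.4%), 4 and 2 in Med15/16-AID (13.8% and 13.2%) and 3 and 3 in Mot1/Med16-AID (21.6% and 24.3%). Each library is a bulk culture, so a change in a fraction of the cells and a change in every cell cannot be told apart.

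**Figure D1:**
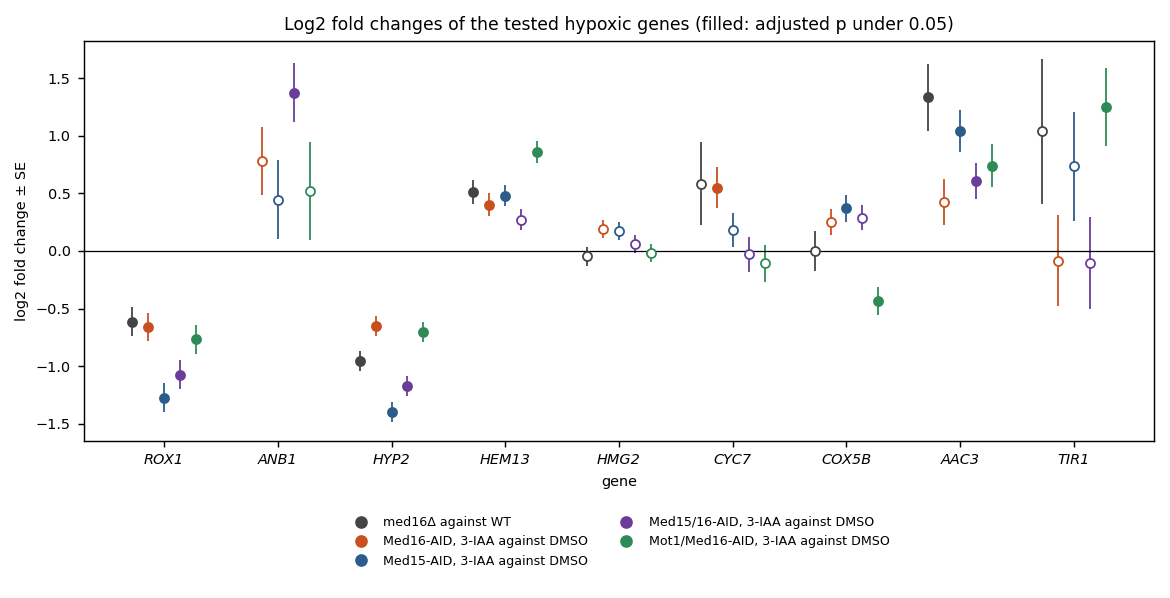
Log2 fold changes (points) with their standard errors (bars) for the 9 tested genes in the 5 main comparisons, on the TMM scale; filled points passed an adjusted p of 0.05, and ANB1 in med16Δ is left out because its WT libraries held 1 count in all. ROX1 and HYP2 are below 0 and filled in each comparison, HMG2 is open in each, and AAC3 is filled in all but Med16-AID.

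ROX1, the repressor gene itself, gave 657, 601 and 530.4 CPM in the 3 med16Δ libraries, against 888, 943 and 908 CPM in WT, and fell by 34.6% (log2 fold change -0.61 ± 0.12, SE, adjusted p = 0.000278). In Med16-AID it had 509, 519.7 and 693 CPM with 3-IAA, against 747, 882 and 1084 CPM with DMSO (-0.66 ± 0.12, adjusted p = 0.000262). Neither pair of groups overlapped. In Med15-AID the libraries held 283, 287 and 273 CPM with 3-IAA, against 609, 689.7 and 738 CPM with DMSO, a fall of 58.6% (-1.27 ± 0.13, adjusted p = 2.5e-09). With both subunits depleted ROX1 had 213, 229 and 249.7 CPM, against 430.2, 492 and 528 CPM with DMSO (-1.07 ± 0.13, adjusted p = 1.06e-07), the lowest level in any group. In Mot1/Med16-AID it had 449, 438 and 449.8 CPM with 3-IAA, against 699, 645 and 929 CPM with DMSO (-0.77 ± 0.12, adjusted p = 1.35e-05). Every treated or mutant library of a comparison was thus below every library of its reference.

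The size of these falls depends on the scale. TMM sets the middle of all genes to no change, whereas the study scaled its libraries to an added S. pombe culture, whose counts are not in the tables used here; its size factors were inferred for 4 of the 5 comparisons from the study's DESeq2 output and the deposited counts. They put the middle log2 fold change over all tested genes at 0.19 in med16Δ, 0.21 in Med16-AID, 0.22 in Med15-AID and 0.12 in Med15/16-AID. On that scale ROX1 was still lower, at -0.44 in med16Δ and -0.46 in Med16-AID, but neither passed the test. The adjusted p was 0.0849 in med16Δ (range over all alternatives 2.41e-05 to 0.0849) and 0.352 in Med16-AID (range 6.39e-06 to 0.352). In Med16-AID none of the 9 genes passed with the spike-in factors, which were applied to the 6 libraries of that strain alone.

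**Figure D2:**
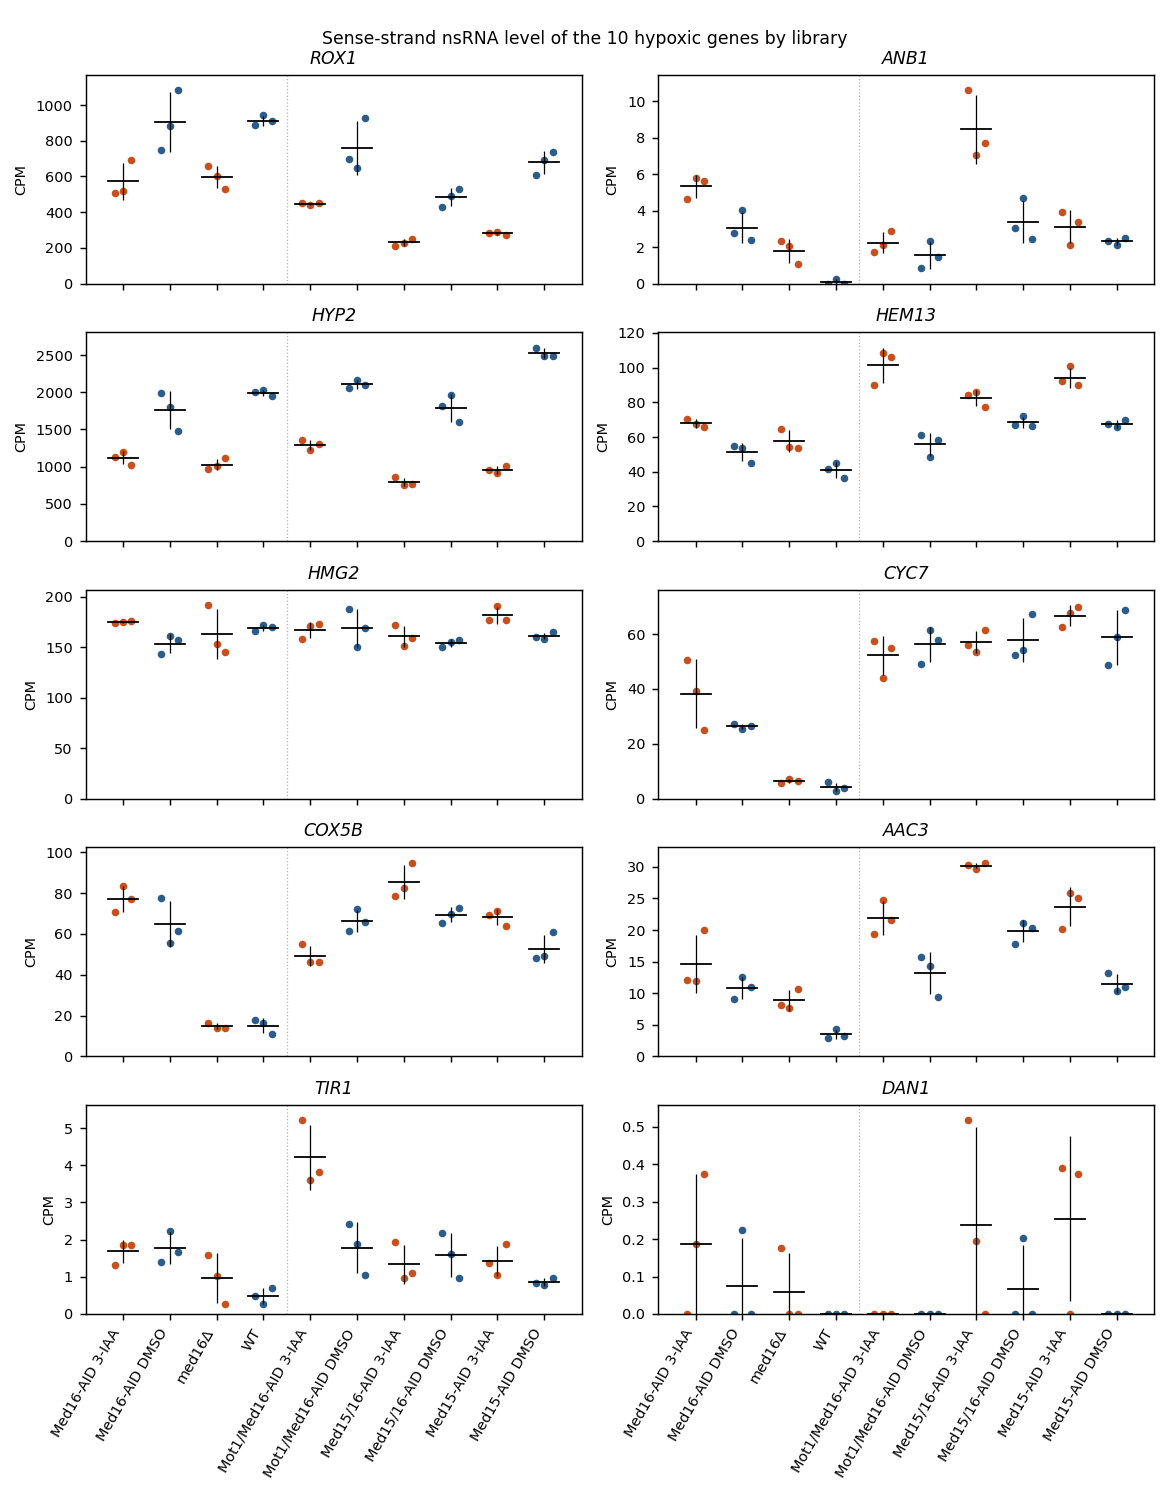
Sense-strand CPM of each of the 10 genes (panels, y axis from 0) in each library (points), by group (x axis). Horizontal bars are means and vertical bars 1 SD of 3 libraries. Orange marks 3-IAA and med16Δ, blue marks DMSO and WT, and the dotted line separates the 2 assigned sequencing runs. ROX1 and HYP2 drop in each orange group next to its blue one, ANB1 peaks at 7.04 to 10.6 CPM in Med15/16-AID with 3-IAA, and CYC7 and COX5B are low in med16Δ and WT alone.

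ANB1, the hypoxic eIF5A gene, was near the floor of the measurement. The med16Δ libraries held 13, 8 and 4 counts, against 0, 1 and 0 counts in WT, a ratio of 22.7 (95% interval 3.71 to 930) that covers counting error only. Every degron library held more ANB1 counts than any WT library. In Med15/16-AID it had 82, 36 and 35 counts (10.6, 7.04 and 7.71 CPM) with 3-IAA, against 14, 23 and 15 counts (3.04, 4.67 and 2.45 CPM) with DMSO, and rose 2.59-fold (1.37 ± 0.25, adjusted p = 0.000171). This was its only call among the 4 depletions. In Med16-AID it had 4.61, 5.79 and 5.60 CPM with 3-IAA, against 2.77, 4.04 and 2.39 CPM with DMSO, which did not overlap but missed the threshold (0.78 ± 0.29, adjusted p = 0.06; 0.0463 without the second DMSO library and 0.0173 with the unstranded column, range over all alternatives 0.0173 to 0.193). The fold changes were 0.44 ± 0.34 in Med15-AID (adjusted p = 0.571) and 0.52 ± 0.42 in Mot1/Med16-AID (adjusted p = 0.349), and in both strains the groups overlapped.

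HYP2, the aerobic eIF5A gene, fell further than any other gene of the set in med16Δ, Med15-AID and Med15/16-AID, while ROX1 had the lower value in Med16-AID and Mot1/Med16-AID. It had 968, 1009 and 1111 CPM in med16Δ, against 2010, 2024 and 1946 CPM in WT (-0.95 ± 0.09, adjusted p = 2.78e-10). With 3-IAA the Med15-AID libraries held 953, 909 and 1009 CPM, against 2600, 2493 and 2482 CPM with DMSO, a fall of 62.1% (-1.40 ± 0.09, adjusted p = 9.18e-14). The Med15/16-AID libraries held 860.2, 755 and 773 CPM, against 1819, 1968 and 1596 CPM (-1.17 ± 0.09, adjusted p = 7.36e-12). No treated library reached the level of a DMSO library in either strain. The change was -0.65 ± 0.09 in Med16-AID (adjusted p = 2.2e-06) and -0.70 ± 0.09 in Mot1/Med16-AID (adjusted p = 2.01e-07). With the spike-in factors HYP2 in Med16-AID was at -0.45 and no longer passed (adjusted p = 0.375, range over all alternatives 2.18e-12 to 0.375). HYP2 had 0 counts in the unstranded column of all 30 libraries, so only its sense counts can be used.

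HEM13 encodes coproporphyrinogen oxidase, the oxygen-using step of heme synthesis, and HMG2 the low-oxygen HMG-CoA reductase. HEM13 had 64.8, 54.4 and 53.7 CPM in med16Δ, against 41.3, 45.2 and 36.1 CPM in WT, and rose 1.42-fold (0.51 ± 0.11, adjusted p = 0.000395). Its largest rise came in Mot1/Med16-AID, with 89.7, 108 and 106 CPM after 3-IAA, against 60.9, 48.5 and 58.1 CPM with DMSO (0.86 ± 0.09, adjusted p = 2.6e-08). All treated libraries were above all DMSO libraries there. It also rose in Med15-AID, with 92.0, 101 and 89.7 CPM against 67.3, 65.5 and 69.8 CPM (0.48 ± 0.09, adjusted p = 0.000264). The rise in Med16-AID was 0.40 ± 0.10 (adjusted p = 0.00349; 0.155 with the spike-in factors, range over all alternatives 0.00176 to 0.155). In Med15/16-AID the value of 0.27 ± 0.09 missed the threshold (adjusted p = 0.057), although the groups of 84.0, 85.9 and 77.5 CPM and 67.1, 72.1 and 66.4 CPM did not overlap. It was called there with the spike-in factors (adjusted p = 0.000435), within the run, with only the compared groups, by DESeq2 and without the third 3-IAA library (range over all alternatives 0.000435 to 0.184). HMG2 passed in none of the 5 comparisons on the TMM scale of all libraries, with values between -0.04 in med16Δ and 0.19 in Med16-AID and adjusted p between 0.0984 and 0.876. In Med15-AID it was called with the spike-in factors (0.39, adjusted p = 0.00494) and with only the compared groups (0.017, range over all alternatives 0.00494 to 0.499). Its group means spanned a 1.18-fold range over all 10 groups, the narrowest of the set.

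The 3 genes for hypoxic mitochondrial proteins did not move as a block. AAC3, an ADP/ATP carrier, had 8.17, 7.62 and 10.7 CPM in med16Δ, against 2.97, 4.28 and 3.22 CPM in WT, a 2.52-fold rise (1.33 ± 0.29, adjusted p = 0.000707). It rose 2.06-fold in Med15-AID, with 20.1, 25.9 and 25.1 CPM after 3-IAA, against 13.2, 10.4 and 10.96 CPM with DMSO (1.04 ± 0.18, adjusted p = 6.95e-05). AAC3 rose in Med15/16-AID (30.3, 29.7 and 30.6 CPM against 17.8, 21.1 and 20.4 CPM; 0.61 ± 0.16, adjusted p = 0.00879) and in Mot1/Med16-AID (19.3, 24.8 and 21.5 CPM against 15.8, 14.3 and 9.40 CPM; 0.74 ± 0.18, adjusted p = 0.00201). None of these 4 pairs of groups overlapped, although without the first Med15/16-AID DMSO library the adjusted p in that strain was 0.0594. In Med16-AID the groups overlapped (0.42 ± 0.20, adjusted p = 0.137).

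COX5B, the low-oxygen subunit Vb of cytochrome c oxidase, moved in opposite directions in 2 strains. It had 54.9, 46.4 and 46.2 CPM in Mot1/Med16-AID with 3-IAA, against 61.3, 72.2 and 66.0 CPM with DMSO, and fell by 25.9% (-0.43 ± 0.12, adjusted p = 0.00528). In Med15-AID it had 69.3, 71.3 and 64.1 CPM, against 48.2, 49.0 and 60.8 CPM with DMSO (0.37 ± 0.12, adjusted p = 0.0369), a rise that was not called when any one of 4 of the 6 libraries was left out (the first or second of either group, adjusted p 0.0101 to 0.161 over the 6) or with the replicate number as a block (0.0722, range over all alternatives 1.55e-05 to 0.161). The groups did not overlap in either strain. In Med15/16-AID its 0.29 ± 0.11 missed the threshold (adjusted p = 0.109) but was called with the spike-in factors (0.000435), within the run and with only the compared groups (range over all alternatives 0.000435 to 0.417). In Med16-AID it was called only without the first DMSO library (0.0171, range 0.0171 to 0.495), and in med16Δ the 16.5, 14.0 and 13.9 CPM lay among the WT values of 17.8, 16.3 and 11.04 CPM (0.00 ± 0.18, adjusted p = 0.999).

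CYC7, the low-oxygen cytochrome c gene, was called on the TMM scale in Med16-AID alone, with 50.4, 39.4 and 25.2 CPM after 3-IAA, against 27.3, 25.4 and 26.5 CPM with DMSO (0.55 ± 0.18, adjusted p = 0.0253). The groups overlapped, since the third treated library was below all DMSO libraries. The value ranged from 0.29 to 0.78 when each library was left out and passed in only 2 of those 6 cases, those without the third 3-IAA or the first DMSO library. Without the first 3-IAA library the adjusted p was 0.31, without the second 0.0608, and without the second or the third DMSO library 0.0916 or 0.0643. It was also not called with the spike-in factors (0.062), within the run (0.087) or with only the compared groups (0.13). In the other 3 degron strains it was between -0.11 and 0.18. The value in Med15-AID was called with the spike-in factors (0.41, adjusted p = 0.00549, range over all alternatives 0.00549 to 0.928).

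TIR1 and DAN1 encode cell wall mannoproteins that replace the aerobic ones when oxygen is absent, and both were barely transcribed. TIR1 had 24, 17 and 16 counts in Mot1/Med16-AID with 3-IAA, against 11, 8 and 5 counts with DMSO, and rose 2.37-fold (1.25 ± 0.34, adjusted p = 0.00392) with no overlap. It was called in none of the other 4 comparisons, in which it had 1 to 15 counts per library. In some groups its antisense counts exceeded its sense counts, with 8, 13 and 17 against 4, 4 and 5 in Med15-AID with DMSO. In others they were lower, with 3, 4 and 2 against 24, 17 and 16 in Mot1/Med16-AID with 3-IAA. Counting both strands gave an adjusted p of 0.0138 in med16Δ (range over all alternatives 0.0138 to 0.808). DAN1 had 15 counts in all 30 libraries, in 9 of them, with at most 4 in one library. In the smallest library a count of 0 allows up to 0.803 CPM, so a difference in DAN1 was not detectable at this depth.

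The change within each hypoxic and aerobic pair was read as the hypoxic gene's share of the pair, with both CPM values divided by coding length. The hypoxic gene was the minor one in each pair in all 10 groups. In Med15/16-AID the ANB1 share of the eIF5A pair was 1.22, 0.924 and 0.987% with 3-IAA, against 0.167, 0.237 and 0.153% with DMSO, and in med16Δ it was 0.238, 0.201 and 0.0943%, against 0, 0.0132 and 0% in WT. CYC7 made up 16.2 ± 1.02% of the cytochrome c pair in Med15-AID with 3-IAA and 8.94 ± 1.58% with DMSO (SD, n = 3 each). AAC3 made up 9.47 ± 0.676% of its pair with PET9 in Med15/16-AID with 3-IAA and 5.50 ± 0.605% with DMSO, and HMG2 27.0 ± 0.834% of its pair in Med15-AID with 3-IAA and 19.1 ± 0.0800% with DMSO (SD, n = 3 each). In Med15-AID and in Med15/16-AID the share was higher in all 3 treated libraries than in all 3 DMSO libraries for each of the 5 pairs. The same held for 3 of 5 pairs in Med16-AID, 3 of 5 in Mot1/Med16-AID and, the ANB1 pair left out, 1 of 4 in med16Δ. These counts are a description, as no such share over other gene pairs was computed, and a share also rises when the aerobic gene falls. COX5B went the other way in 2 comparisons, with 13.9 ± 0.962% in Mot1/Med16-AID with 3-IAA and 16.8 ± 0.526% with DMSO, and 3.68 ± 0.865% in med16Δ and 6.57 ± 1.31% in WT (SD, n = 3 each). An exact permutation test of 3 libraries against 3 cannot go below a two-sided p of 0.1, which each of the non-overlapping comparisons gave (Benjamini-Hochberg adjusted 0.133 over 40 tests).

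**Figure D3:**
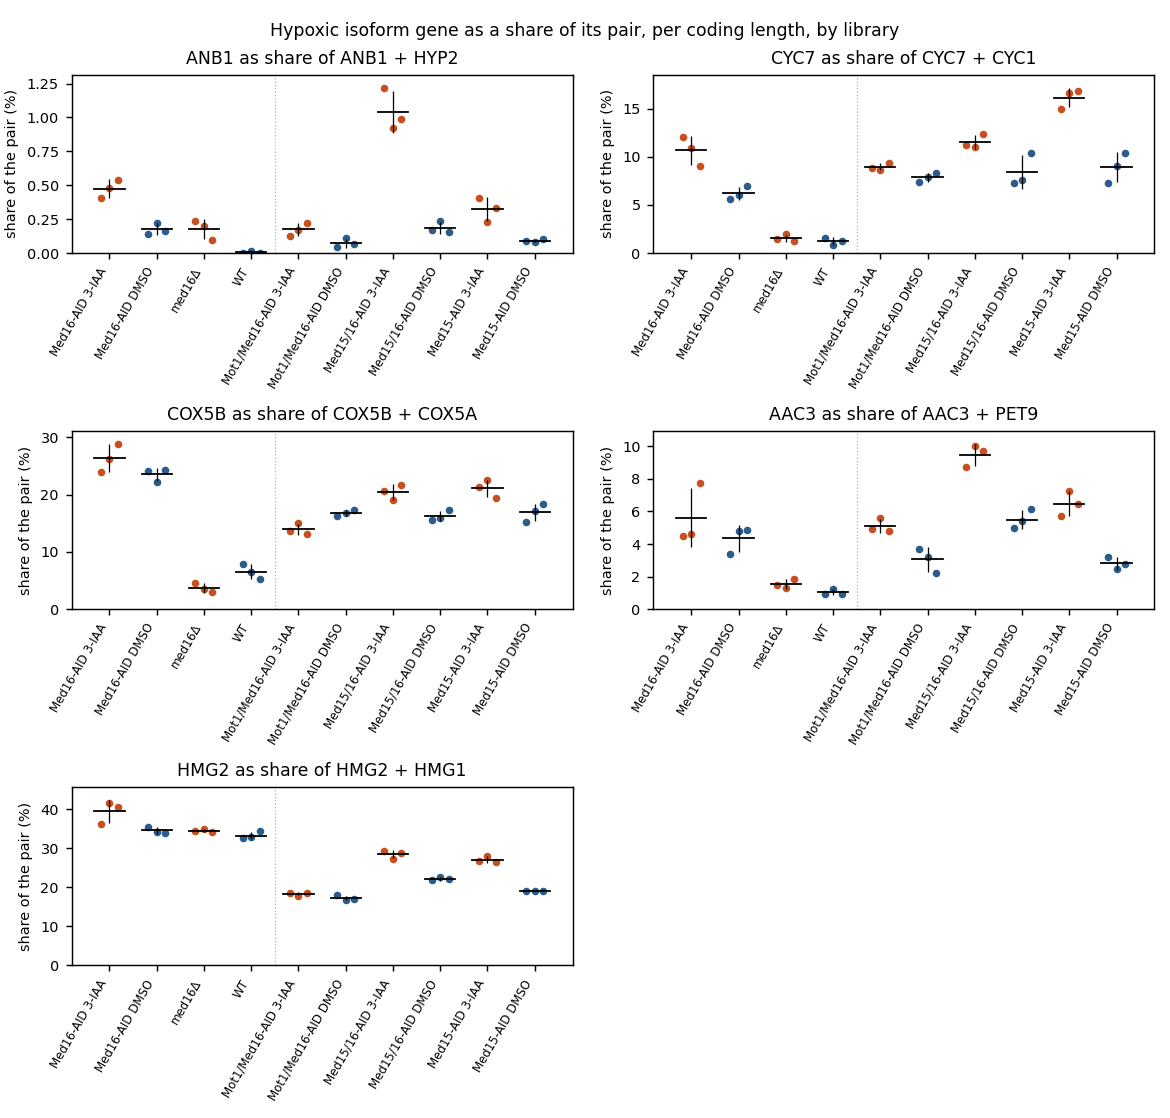
Share of each pair's coding-length-scaled CPM that came from the hypoxic gene (y axis in percent, from 0) in each library (points) by group (x axis), with means and 1 SD of 3 libraries. Orange marks 3-IAA and med16Δ, blue marks DMSO and WT, and the dotted line separates the assigned sequencing runs. In Med15-AID and Med15/16-AID each orange group lies above its blue one in all 5 panels, with 1.04% against 0.186% for ANB1 in Med15/16-AID.

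The shares depend on both genes of a pair, and several aerobic partners changed. In Med15-AID HYP2 (-1.40), CYC1 and HMG1 fell, while ANB1 (0.44), CYC7 (0.18) and HMG2 (0.17) were not called on the TMM scale. AAC3 (1.04) and COX5B (0.37) were called higher there. CYC1 fell in all 4 depletions, with log2 fold changes of -0.36 in Med16-AID (adjusted p = 0.0259), -0.79 in Med15-AID (3.93e-06), -0.54 in Med15/16-AID (0.00103) and -0.31 in Mot1/Med16-AID (0.0296). HMG1 fell in Med15-AID (-0.48, adjusted p = 8.42e-05) and Med15/16-AID (-0.43, 0.00049), where HMG2 did not pass. PET9 fell in the same 2 strains (-0.22, adjusted p = 0.045, and -0.23, 0.0376), and AAC1, the minor aerobic carrier, in Mot1/Med16-AID (-0.99, 2.49e-05). COX5A passed in no depletion. In med16Δ 3 of the 5 aerobic genes rose, where 11.8% of all genes were called higher. COX5A was up 1.85-fold (adjusted p = 6.22e-08), PET9 1.69-fold (6.68e-10) and CYC1 1.26-fold (0.0367).

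The strains also differed before any depletion. CYC7 had 27.3, 25.4 and 26.5 CPM in Med16-AID with DMSO, against 5.94, 2.94 and 3.91 CPM in WT, and was 6.12-fold higher (2.61 ± 0.27, adjusted p = 4.76e-09). COX5B had 77.7, 55.4 and 61.5 CPM, against 17.8, 16.3 and 11.04 CPM in WT (2.11 ± 0.15, adjusted p = 1.25e-12), and ANB1 held 12, 18 and 10 counts, against 0, 1 and 0 counts in WT (a ratio of 37.4 (95% interval 6.33 to 1510), counting error only). AAC3 (1.64 ± 0.28, adjusted p = 1.39e-05), TIR1 (1.79 ± 0.56, 0.00807) and HEM13 (0.33 ± 0.11, 0.00958) were higher as well, although the HEM13 groups overlapped and it had an adjusted p of 0.0525 without the first Med16-AID DMSO library and 0.0817 without the third WT library. Thus 6 of the 9 genes were called, all of them higher. Of all genes, 29.1% were called higher, 27.3% lower and 56.4% in either direction. The 6 include ANB1, whose rise in med16Δ against the same WT libraries was known when it was listed, so its call here is no independent test. ROX1 had -0.01 (adjusted p = 0.94) and HYP2 -0.18 (0.0786; 0.0466 by DESeq2 and 0.0135 without the first Med16-AID DMSO library, range over all alternatives 0.0135 to 0.507). The degron tag, OsTIR1, the difference at BAR1 and DMSO all separate these groups and cannot be told apart. In the 6 groups of the other 3 degron strains CYC7 averaged 52.2 to 66.7 CPM and COX5B 49.2 to 85.4 CPM, above the WT and med16Δ levels in each group.

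Among the degron strains in DMSO, Med15/16-AID had less ROX1 (430.2, 492 and 528 CPM) than Med15-AID (609, 689.7 and 738 CPM; -0.49 ± 0.12, adjusted p = 0.00225) and less HYP2 (-0.49 ± 0.09, 3.39e-05), and more AAC3 (0.79 ± 0.18, 0.00115) and COX5B (0.40 ± 0.12, 0.00754). These 2 lower and 2 higher calls of 9 compare with 37.1% of all genes called (18.1% higher, 19.0% lower). Mot1/Med16-AID differed from Med15/16-AID the opposite way, with more ROX1 (699, 645 and 929 CPM against 430.2, 492 and 528 CPM; 0.65 ± 0.12, adjusted p = 0.000114) and HYP2 (0.23 ± 0.09, 0.0297), and less AAC3 (-0.60 ± 0.18, 0.0097), HEM13 (-0.29 ± 0.10, 0.0149) and ANB1 (-1.10 ± 0.38, 0.0189). That is 2 higher and 3 lower of 9, against 44.2% of all genes called (24.7% higher, 19.5% lower), but only 2 to 4 of the 5 were called when single libraries were left out (2 without the third Mot1/Med16-AID DMSO library, 3 without the second one or the second Med15/16-AID DMSO library). ANB1 was also lost without the first Mot1/Med16-AID library (adjusted p = 0.116), and HYP2 without the first or the third Med15/16-AID library (0.0829 or 0.187). Both comparisons use the same Med15/16-AID DMSO libraries, so they are not independent of each other.

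Whether responses differed between strains was tested directly. Adding Med16 depletion to Med15 depletion gave no called difference in any of the 9 genes (edgeR; 0.188% of all genes called), and DESeq2 and each other alternative also called 0. At an unadjusted p under 0.05 the count was 1, ANB1, with a difference of 0.93 ± 0.44 (adjusted p = 1). Between Mot1/Med16-AID and Med15/16-AID 3 genes were called (21.7% of all genes). HEM13 rose more (0.59 ± 0.13, adjusted p = 0.00148), COX5B, not called in Med15/16-AID, moved lower by comparison (-0.72 ± 0.16, 0.0017) and HYP2 fell less (0.47 ± 0.12, 0.00588). HYP2 also fell more in Med15/16-AID than in Med16-AID (-0.52 ± 0.12, adjusted p = 0.00735, with 5.54% of all genes called). This difference crosses the assigned sequencing runs. It did not pass with only the compared groups (adjusted p = 0.0677) or the spike-in factors (0.268, range over all alternatives 0.00103 to 0.268). For the lasting against the acute loss of Med16 (13.5% of all genes called) ANB1 was left out, since the med16Δ contrast was known when it was listed, and 0 of the other 8 genes passed by edgeR or DESeq2 (3 at an unadjusted p under 0.05). ROX1 differed by 0.04 ± 0.17 (adjusted p = 0.908).

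Related genes were listed by their known roles. Their calls stand against 24.0% of all genes called in med16Δ, 19.6% in Med16-AID and 10.2% in Med15-AID. The share was 9.80% in Med15/16-AID and 38.7% in Mot1/Med16-AID. Of 10 regulators, 1 rose and 2 fell in med16Δ (ECM22, a sterol-responsive activator, 0.36, adjusted p = 0.00888; HAP1 -0.42, 0.0231; TUP1 -0.37, 0.018), none passed in Med15/16-AID, and 5 fell in Mot1/Med16-AID, where 20.5% of all genes fell, led by TUP1 (-0.40, 0.00604), the repressor gene IXR1 (-0.39, 0.0229) and SUT1 (-0.39, 0.0063). ECM22 also rose in Med16-AID (0.36, 0.00983) and Med15-AID (0.38, 0.0067), where MOT3, a repressor of DAN and TIR genes, fell (-0.36, 0.0433). Of 7 further heme synthesis genes, HEM1 (0.49, 0.000115) and HEM14 (0.55, 0.000183) rose in med16Δ, HEM14 in Med15-AID (0.44, 0.000517), and none passed in Med15/16-AID. In Med16-AID HEM15 rose (0.32, 0.00508) and HEM3 fell (-0.22, 0.00492), and in Mot1/Med16-AID HEM14 rose (0.42, 0.000691) while HEM12 (-0.39, 8.38e-06) and HEM3 (-0.31, 5.96e-05) fell. HEM14 overlaps an annotated gene on the other strand.

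The other mannoprotein genes gave few calls, and the shares of all genes called given above are the background for the lists here too. Of 6, TIR2 rose in med16Δ (1.06, adjusted p = 0.00156) and Med16-AID (0.72, 0.0197), and in Mot1/Med16-AID TIR3 rose (0.94, 0.00118) while TIR4 (-0.75, 0.0117) and DAN4 (-0.52, 0.0357) fell. Of 9 genes for sterol and fatty acid supply and other hypoxic functions, 4 rose and 2 fell in Med15-AID and 2 rose and 2 fell in Med15/16-AID. ARE1, which esterifies sterols for storage (0.52, 0.00242, in Med15-AID and 0.59, 0.000857, in Med15/16-AID; it overlaps another annotated gene), and the sterol importer gene AUS1 (0.56, 0.000297, in Med15/16-AID) rose. The oxygen-using desaturase gene OLE1 fell (-0.50, 0.000126, and -0.63, 3.48e-06), and so did ERG11 of sterol synthesis (-0.48, 1.21e-06, and -0.43, 1.09e-05). In med16Δ AUS1 (0.61, 0.000284) and the iron transporter gene FET4 (0.47, 1.12e-06) rose and PDR11 fell (-0.33, 0.0179), in Med16-AID 1 rose and 1 fell, and in Mot1/Med16-AID 2 fell. The medians of the 4 lists over the 5 main comparisons lay between -0.25 (regulators, Mot1/Med16-AID) and 0.48 (mannoproteins, med16Δ).

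**Figure D4:**
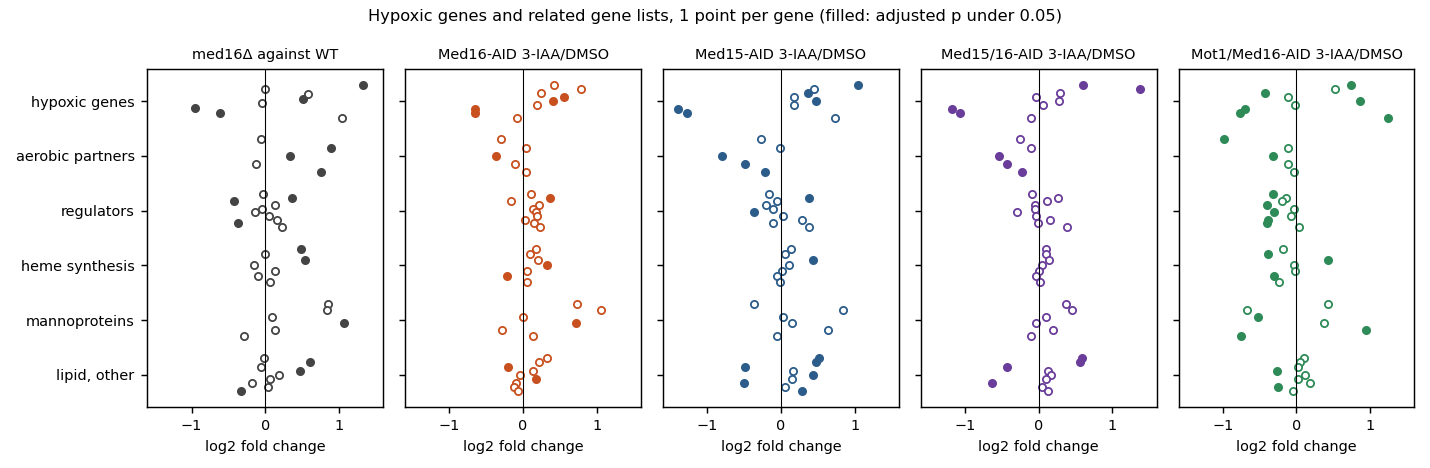
Log2 fold change (x axis) of each gene (points) of the hypoxic set and 5 related lists (rows) in the 5 main comparisons (panels); filled points passed an adjusted p of 0.05, ANB1 in med16Δ is left out, and the vertical line marks no change. In Med15-AID and Med15/16-AID 3 of the 5 aerobic partners are filled and left of 0, and in Med15/16-AID no regulator, heme synthesis gene or mannoprotein is filled.

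Genes outside the lists used here were ranked by likeness to ANB1 in their log2(CPM + 0.5) profile over the 10 group means. The rest of the set, the aerobic partners and the related lists could thus not appear. The most like were YGL185C (Pearson r = 0.973), RNR3 (r = 0.955), a subunit gene of ribonucleotide reductase, and BIO4 (r = 0.942), a biotin synthesis gene. The 6033 genes compared were counted before the listed genes were left out. YGL185C, RNR3 and BIO4 share libraries, scaling and strains with ANB1, and the likeness is a description. A high r does not mean a change of like size. Group means spanned 94.8-fold in ANB1, from a WT mean that rests on 1 count. They ran from 35.5 to 58.4 CPM in YGL185C, 6.19 to 19.8 CPM in RNR3 and 5.005 to 12.9 CPM in BIO4. Ordered by mean level, ANB1 was highest in Med15/16-AID with 3-IAA, at 8.46 ± 1.90 CPM, and lowest in WT, at 0.0892 ± 0.154 CPM (SD, n = 3 each), and 7 of its 9 neighbouring pairs of groups overlapped. ROX1 was lowest in Med15/16-AID with 3-IAA, at 230.4 ± 18.5 CPM, and highest in WT, at 913 ± 27.9 CPM (SD, n = 3 each), where WT overlapped Med16-AID with DMSO, at 905 ± 169.7 CPM, and 7 of its 9 neighbouring pairs overlapped.

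Reads on the antisense strand were counted separately. ANB1, HEM13, DAN1 and CYC7 had too few to test and HMG2 was the only gene of the set with a call in the 5 main comparisons. It had 95, 111 and 115 antisense counts in Mot1/Med16-AID with 3-IAA, against 83, 63 and 85 with DMSO (0.49, adjusted p = 0.0328 over 3492 genes, of which 16.6% were called). It was also higher in Med15/16-AID than in Med15-AID, both in DMSO, with 79, 75 and 80 against 25, 39 and 46 antisense counts (1.05, adjusted p = 2.28e-05; 15.2% of genes called), while its sense level was not called there (-0.06, adjusted p = 0.58).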

How the data were processed

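Nascent RNA was measured in 30 libraries, 3 per group, with groups taken from the sample labels. The authors aligned stranded reads with STAR 2.6.1a to sacCer3 and deposited its gene counts, whole numbers for 6692 genes in unstranded, antisense and sense columns; the sense counts were used, and rows that name no gene were left out (unmapped reads 13.5 to 24.3% and multimapping reads 35.5 to 58.2% of each library). Reads shared by gene families are lost with the multimapping reads.

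Counts of all 30 libraries were fitted together with edgeR 4.0.16 (R 4.3.3, limma 3.58.1) after its filter on low counts, with TMM scaling and the quasi-likelihood test, for 5 main comparisons, 3 comparisons of strain levels and 4 differences of effects. P-values were adjusted by Benjamini-Hochberg over 5844 genes at a threshold of 0.05. Fold changes carry a prior count of 0.125. The scripts were tested on simulated data. The study calls the libraries of a group biological replicates, while the labels do not say what separates them, and p-values measure the spread between these samples. Intervals and floors (3 counts) cover counting error only. Alternatives were median-of-ratios factors, spike-in factors, DESeq2 1.42.0, no filter, the compared groups or 1 run alone, the unstranded column, a replicate block and each library left out. The spike-in factors were inferred by fitting the fold changes and standard errors of the study's own DESeq2 output to the deposited counts; none of those values is printed. The genes and lists were chosen with earlier results of these data known. Outside the 10 genes, up to 3 called genes with the largest change were named per list, and genes outside that rule were chosen after their values were seen.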

Additional observations from a re-analysis of the deposited data

Results flagged for a closer look

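A total of 4 differences between responses passed the test, and the 10 genes' antisense counts held 1 further call. HYP2 fell further in Med15/16-AID than in Med16-AID (-0.52, adjusted p = 0.00735; 5.54% of all genes called), across the 2 assigned sequencing runs. Mot1/Med16-AID differed from Med15/16-AID in HEM13 (0.59, adjusted p = 0.00148), COX5B (-0.72, 0.0017) and HYP2 (0.47, 0.00588), where 21.7% of all genes were called. HMG2 antisense counts, outside the sense measurement, averaged 23.9 CPM with 3-IAA and 16.9 CPM with DMSO in Mot1/Med16-AID (0.49, adjusted p = 0.0328). HMG2 was the only call there among the genes that could be tested (ROX1, AAC3, TIR1, COX5B, HYP2 and HMG2). Of all 3492 genes tested, 16.6% were called, so this call is no more than the background share. The fitted difference of ANB1 between med16Δ against WT and Med16-AID with 3-IAA against DMSO was 3.34 on the log2 scale. It is given as a description with no test, since it rests on WT libraries with 0, 1 and 0 counts and on the contrast known when the gene was listed. No cause was tested for any of these.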

How the results depend on the processing

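No called gene of the set changed direction under any alternative or with any library left out. Calls were lost in 11 cases under other settings and 23 with a library left out and gained in 13 and 4, and the cause was not tested. The lost cases include the ANB1 difference of med16Δ minus Med16-AID, which carries no test here. It was lost with the spike-in factors and without the first or the third WT library. Counts of genes called with the spike-in factors are given here with the TMM count in parentheses. In med16Δ, ANB1 left out, the count was 3 (4). It was 0 in Med16-AID (4), 7 in Med15-AID (5) and 6 in Med15/16-AID (4). For med16Δ minus Med16-AID, ANB1 left out, it was 0 (0). For Med15/16-AID minus Med16-AID it was 0 (1). That last count was also 0 with the unstranded column, where HYP2 has no counts, and 0 with only the compared groups. Over left-out libraries the counts ran from 2 to 4 for Mot1/Med16-AID against Med15/16-AID in DMSO (5). They ran from 1 to 2 (without the third Med16-AID 3-IAA library) for Med15/16-AID minus Med16-AID (1). Those for med16Δ minus Med16-AID include ANB1 and are left out.

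Over all genes, Med16-AID gave 1144 calls, against 104 with spike-in factors, 432 with only the compared groups and 629 within the run. The counts were 541 (spike-in) and 1405 (TMM) in med16Δ, 1792 (spike-in), 1089 (compared groups) and 596 (TMM) in Med15-AID, and 1614 (spike-in) and 573 (TMM) in Med15/16-AID. Calls split into higher and lower as 331 and 210 with spike-in factors and 692 and 713 with TMM in med16Δ, 93 and 11 against 482 and 662 in Med16-AID, 1546 and 246 against 132 and 464 in Med15-AID, and 1248 and 366 against 175 and 398 in Med15/16-AID.

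Values that changed sign were all uncalled. COX5B in med16Δ (0.0002) became -0.0043 with no filter, -0.0126 unstranded, -0.0064 within the run, -0.0039 with only the compared groups and -0.0206 with the replicate block. HMG2 became 0.1239 in med16Δ with spike-in factors, 0.0262 in Mot1/Med16-AID unstranded, 0.0083 there with only the compared groups and 0.0151 for Med15/16-AID against Med15-AID unstranded. TIR1 unstranded became 0.1818 in Med16-AID, 0.3038 in Med15/16-AID, -0.2446 for Med15/16-AID against Med15-AID and -0.1049 for Mot1/Med16-AID against Med15/16-AID. CYC7 became 0.076 in Med15/16-AID with spike-in factors, and 0.0022 within the run and 0.0078 with only the compared groups for Med15/16-AID against Med15-AID. With a library left out the ranges that crossed 0 were -0.21 to 0.13 (COX5B) and -0.1829 to 0.0099 (HMG2) in med16Δ, -0.24 to 0.12 (TIR1) in Med16-AID, -0.55 to 0.17 (TIR1) and -0.0957 to 0.0968 (CYC7) in Med15/16-AID, -0.1956 to 0.0024 (CYC7) and -0.0782 to 0.0655 (HMG2) in Mot1/Med16-AID, -0.16 to 0.11 (ROX1) for Med16-AID against WT, -0.0168 to 0.0609 (HEM13) and -0.14 to 0.13 (CYC7) for Med15/16-AID against Med15-AID, and -0.0992 to 0.4765 (TIR1) and -0.1617 to 0.0764 (CYC7) for Mot1/Med16-AID against Med15/16-AID.

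Replicate numbers did not pair the libraries (3 of 15 pairs with r over 0.1, range -0.329 to 0.252, own number best in 5 of 15). With the replicate block all 12 counts of genes called stayed within 1.5 times, and COX5B in Med15-AID had an adjusted p of 0.0722. Depth limits DAN1, TIR1 and ANB1.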
